A study of Mus musculus with 12 samples.

Results

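A set of 32 genes of endoplasmic reticulum (ER) stress and the integrated stress response (ISR) was followed in sorted GFP(+) liver cells of mice before and after bile duct ligation (BDL), a surgery that dams up bile in the liver. The genes were taken by name, from a list drawn up with earlier results of these data known, and all 32 were found among the 16971 genes listed. Of these, 31 passed the minimum of 10 normalized counts summed over the libraries, as did 12889 of all genes. *Chac1*, a glutathione-degrading enzyme induced by ATF4, did not pass.

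The mice had the genotype *Prom1*CreERT2-nLacZ/+;*Rosa26*Lsl-GFP/+ on a C57BL/6 background according to the labels, crossed from a C57BL/6N knock-in and a C57BL/6J reporter line, and were adults, 6 weeks old in the study's adult experiments. In all 3 groups they carried 1 knock-in allele in which the *Prom1* promoter drives CreERT2 and nuclear LacZ, and all received tamoxifen 7 days before surgery, so cells that expressed *Prom1* at that time and their progeny carry GFP. Day 0 was collected with sham surgery according to the labels, and BDL day 3 and BDL day 14 were collected 3 and 14 days after ligation. Every liver was digested for 45 min at 37 degrees with collagenase and pronase, and GFP(+) cells of the nonparenchymal fraction were sorted and their mRNA was sequenced. The table rests on 3 day 0, 3 BDL day 3 and 4 BDL day 14 libraries, although the labels describe 6 at BDL day 14. The libraries of the table came from 1 male and 2 females, 2 males and 1 female, and 3 males and 1 female in the order of the groups, so sex differed in share between the groups and its part was not tested.

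Proteins that fail to fold in the ER are sensed by IRE1 (encoded by *Ern1*), ATF6 and PERK (*Eif2ak3*). IRE1 splices the mRNA of *Xbp1*, ATF6 is cleaved into a transcription factor, and both raise chaperones and degradation factors. PERK phosphorylates eIF2, as do kinases that sense amino acid shortage, heme and double-stranded RNA, and this slows translation in general while translation of *Atf4* goes up. ATF4 and CHOP (*Ddit3*) then drive genes of amino acid supply, and *Ppp1r15a* reverses the phosphorylation. Much of this regulation acts by splicing, cleavage, phosphorylation and translation, which the mRNA level of a gene does not show. In the liver the pathway is known from the secretory load of hepatocytes and from injury by bile acids.

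Promoter sequences show which of these genes carry the classical stress elements next to their start. RefSeq promoters of GRCm38.p6 were found for 29 of the 32 genes, as 30 promoters, and the 250 bases before each start were searched on both strands. The ER stress response element (ERSE), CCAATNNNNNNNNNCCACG, was present for 8 of the 29 genes (27.6%) and in 0.113% of all 32851 promoters. Its shorter form ERSE-II, ATTGGNCCACG, was present for 1 gene (3.45%) against 0.0304% of all promoters. The C/EBP-ATF response element (TGATGNAA), bound by ATF4 dimers, was present for 3 genes (10.3%) against 3.45% of all promoters. The core of the unfolded protein response element (TGACGTGG), bound by XBP1, was present in 0.563% of all promoters and for 0 of the 29 genes. The genes were chosen by name for this pathway, so a higher share among them is no independent result. Their shares also count genes, while the others count promoters. Such a match is a description of the letters and does not show binding.

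The sites below stand for the genes whose levels are set side by side later, with *Hspa5* first as the textbook ERSE gene. They are written 5′ to 3′ in the direction of the gene, capitals mark the match, and the match of *Creld2* and of the *Herpud1* C/EBP-ATF element lies on the opposite strand.
*Hspa5*, ERSE, chr2:34772020-34772048, 46 bases before the start: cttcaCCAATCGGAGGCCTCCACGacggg
*Canx*, ERSE, chr11:50325795-50325823, 126 bases before the start: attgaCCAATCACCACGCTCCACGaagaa
*Dnajc3*, ERSE, chr14:118937822-118937850, 86 bases before the start: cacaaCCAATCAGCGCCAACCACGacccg
*Creld2*, ERSE, chr15:88819515-88819543, 107 bases before the start: cttctCGTGGCGAGCCTCAATTGGtccac
*Syvn1*, ERSE, chr19:6046527-6046555, 25 bases before the start: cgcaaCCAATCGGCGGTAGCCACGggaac
*Herpud1*, ERSE-II, chr8:94386372-94386392, 41 bases before the start: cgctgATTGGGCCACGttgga
*Herpud1*, C/EBP-ATF element, chr8:94386312-94386329, 104 bases before the start: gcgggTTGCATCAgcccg
*Asns*, C/EBP-ATF element, chr6:7693220-7693237, 15 bases before the start: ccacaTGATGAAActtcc
*Canx* lies on the minus strand, as does *Asns*, and the other genes shown lie on the plus strand. None of the printed matches overlap, and those of *Hspa5* and *Asns* lie inside the gene bounds of the authors' table, which reach further upstream than the RefSeq start. The remaining ERSE matches were those of *Calr*, *Hsp90b1* and *Pdia6*, and the remaining C/EBP-ATF match was that of *Chac1*.

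Each level below is the authors' group mean of upper quartile normalized read counts, and where 3 means are listed they stand in the order day 0, BDL day 3, BDL day 14. The table also gives, per gene, the highest single library without its name and the geometric mean over the 10 libraries. No library has a value of its own, so no SD within a group and no test between groups could be computed, and the words higher and lower compare group means. The geometric mean and the group means together give an approximate SD within the groups on the log2 scale. It is pooled over the groups with 7 degrees of freedom and gives a standard error (SE) for each log2 ratio of group means. The deposited values are rounded, which makes a small SD and its SE uncertain: that of *Canx* can lie between 0.14 and 0.29. The pooling takes the groups to have 1 spread, while the paper describes replicates at BDL day 14 as more variable than those at day 0. The geometric mean, the group means and the highest library also limit how high or low any single library can have been. The pooled SD had a median of 0.45 over the 26 stress genes with a mean of at least 10 normalized counts, ranging from 0.18 to 1.21, and of 0.44 over all 7291 such genes. The depth of the libraries is unknown. The sequenced RNA comes from pools of sorted cells, in which fewer cells of a type and less RNA per cell cannot be told apart.

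**Figure D1:**
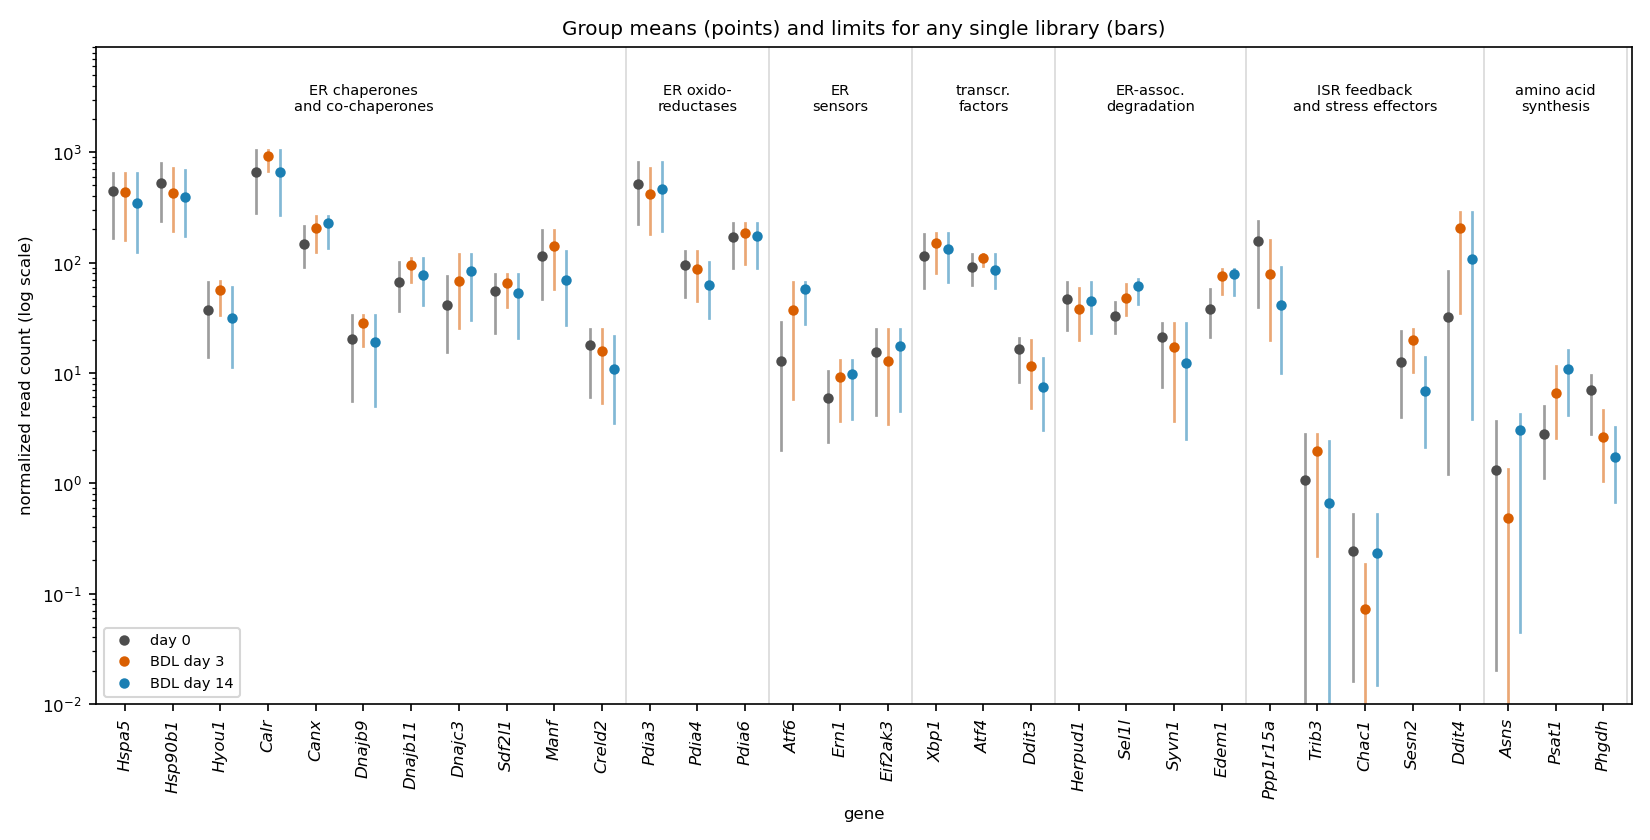
Group means of the 32 genes in normalized read counts on a log scale, by role, with day 0 in grey, BDL day 3 in orange and BDL day 14 in blue. Points are group means and bars span the limits for any single library of the group, drawn down to 0.01, so they are not confidence intervals. The mean of *Atf6* went from 12.9 to 57.2 and that of *Ppp1r15a* from 157 to 41.2, while most chaperones stayed close to their day 0 mean.

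The sorted fraction held the markers of several cell types. The labelled lineage is biliary, and of 14 cholangiocyte and progenitor markers 0 were at the floor at day 0, where the floor is a mean of up to 4 times the lowest mean of the group (0.512, 0.292 and 0.244 in the order of the time points). Their summed level was 730 normalized counts at day 0 and, after ligation, 433 on day 3 and 1110 on day 14, with *Spp1* at 459, 175 and 792. *Krt19* and *Prom1*, named here after their values were seen, had means of 21.5, 12.7 and 14.3 and of 6.66, 0.956 and 1.76. The 12 macrophage markers summed to 15700, 30900 and 24700 normalized counts, and 0 were at the floor in any group. The label of a biliary lineage therefore stands beside a macrophage signal that was above the biliary one in every group. Hepatocyte markers summed to 5060, 2360 and 1480 over 16 genes, with *Alb* at 2440, 642 and 271. Mesenchymal markers summed to 1590, 38.2 and 177 over 12 genes, with 0, 1 and 1 of them at the floor.

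The 32 genes together made up 0.383%, 0.471% and 0.456% of all signal in the order day 0, BDL day 3, BDL day 14. Their summed level was 3530, 3980 and 3350 normalized counts. Per kilobase of exon, the highest levels at day 0 were those of *Calr* (231 normalized counts per kilobase), *Pdia3* (165), *Hsp90b1* (131) and *Hspa5* (106), and the lowest was that of *Chac1* (0.149). The sensors lay far below the chaperones per kilobase, at 0.719 for *Ern1*, 1.4 for *Atf6* and 2.57 for *Eif2ak3*, all at day 0.

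At BDL day 3, 9 of 31 stress genes (29.0%) were more than 1.5-fold higher than at day 0 and 3 (9.68%) were more than 1.5-fold lower. Of all genes kept, 19.2% were higher and 29.2% lower by this limit. The higher genes were *Hyou1*, *Dnajc3*, *Atf6*, *Ern1*, *Edem1*, *Trib3*, *Sesn2*, *Ddit4* and *Psat1*, and the lower ones *Ppp1r15a*, *Asns* and *Phgdh*. The median log2 ratio of the 31 genes was 0.30, from -1.44 to 2.67, and that of all genes was -0.02. Quantile normalization of the group means moved the median of all genes to 0.11 and that of the stress genes to 0.05, with 7 genes higher and 4 lower. The share of all genes past the limit is not given for that setting. Median-ratio scaling left the medians at 0.30 for the stress genes and -0.02 for all genes. That scaling multiplies all genes of a group by the same factor, so it could not change the gap between these medians. Under quantile normalization, which can change it, the median of the stress genes was not above that of all genes.

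At BDL day 14, 9 of 31 genes (29.0%) were higher and 9 (29.0%) lower than at day 0, where 21.2% of all genes were higher and 28.8% lower. The higher genes were *Canx*, *Dnajc3*, *Atf6*, *Ern1*, *Sel1l*, *Edem1*, *Ddit4*, *Asns* and *Psat1*. The lower ones were *Manf*, *Creld2*, *Pdia4*, *Ddit3*, *Syvn1*, *Ppp1r15a*, *Trib3*, *Sesn2* and *Phgdh*. The median log2 ratio was -0.07 for the 31 genes and -0.04 for all genes, so the set as a whole was at the level of the other genes while its members had ratios of both signs. Both comparisons share the day 0 libraries.

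Fewer genes were past the limit when the ratio also had to exceed 2 SE. At BDL day 3 these were 4 higher genes (*Atf6*, *Edem1*, *Ddit4* and *Psat1*) and 1 lower gene (*Phgdh*), beside 11.4% and 15.0% of all genes. At BDL day 14 there were 7 higher genes (*Canx*, *Dnajc3*, *Atf6*, *Ern1*, *Sel1l*, *Edem1* and *Psat1*) and 6 lower genes (*Manf*, *Pdia4*, *Ddit3*, *Ppp1r15a*, *Sesn2* and *Phgdh*), beside 13.2% and 16.8% of all genes. These counts use an approximate SE and are no test. Past 1.5-fold with any 1 library left out were 3 higher genes (*Atf6*, *Edem1* and *Ddit4*) and 1 lower gene (*Phgdh*) on day 3, beside 6.79% and 16.4% of all genes. On day 14 they were 6 higher genes (*Dnajc3*, *Atf6*, *Sel1l*, *Edem1*, *Asns* and *Psat1*) and 3 lower genes (*Ddit3*, *Ppp1r15a* and *Phgdh*), beside 9.80% and 18.1% of all genes.

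**Figure D2:**
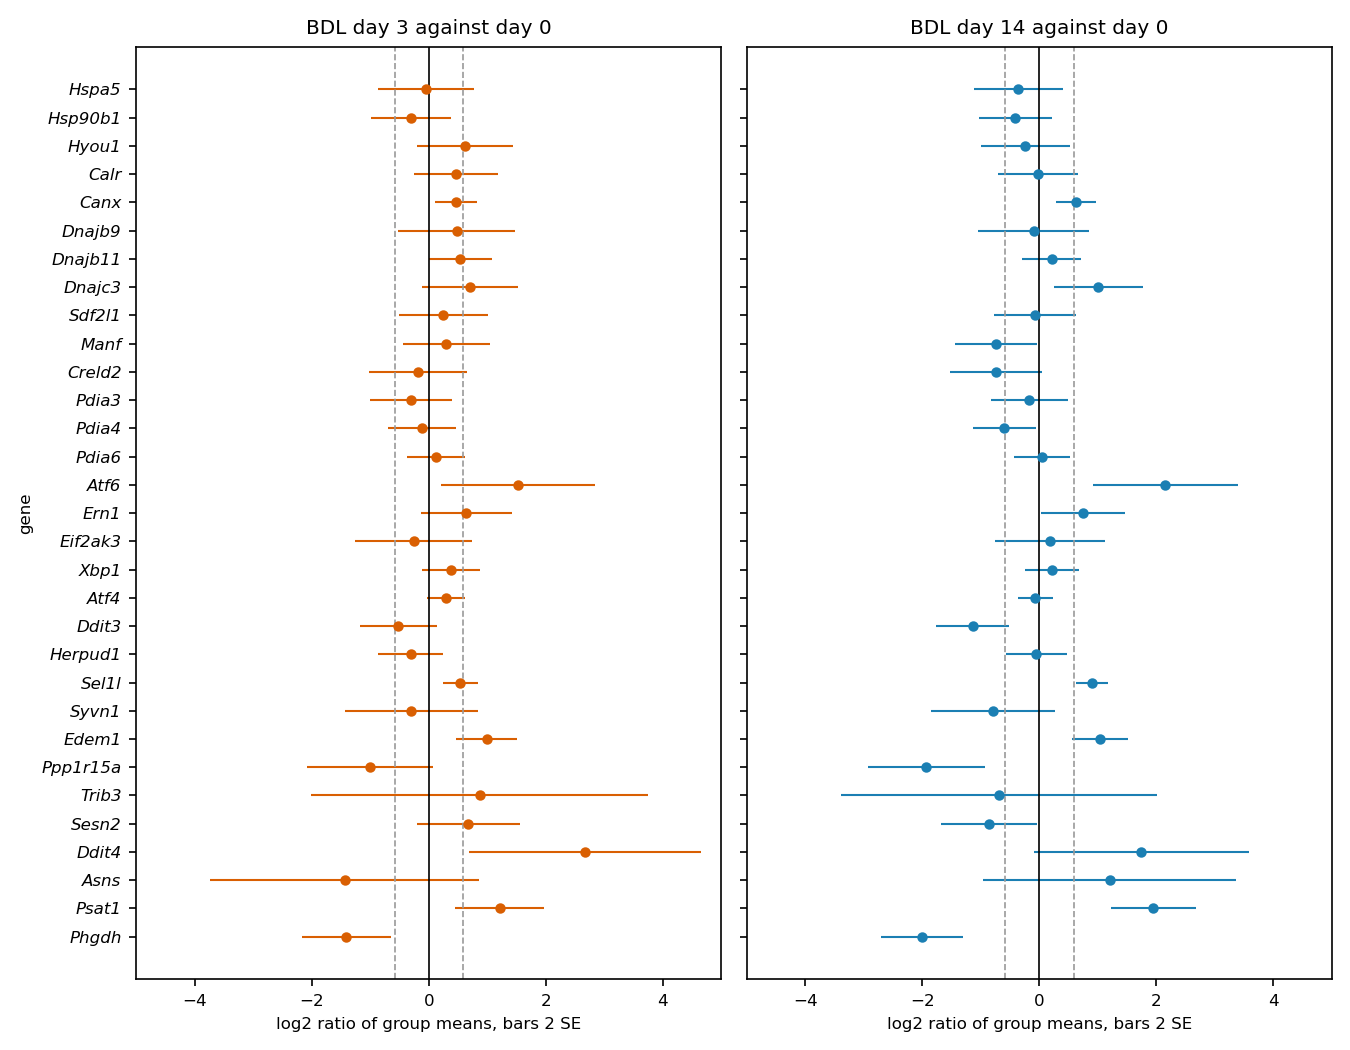
Log2 ratios of the group means for the 31 genes kept, BDL day 3 against day 0 (left, orange) and BDL day 14 against day 0 (right, blue), with bars of 2 SE and dashed lines at 1.5-fold. At BDL day 14 the bars of *Atf6*, *Sel1l*, *Edem1*, *Dnajc3*, *Canx*, *Ern1* and *Psat1* lie above 0, and those of *Asns*, *Trib3* and *Ddit4* are wide and cross it.

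Of the 3 sensors, *Atf6* and *Ern1* had higher means on both days after BDL and *Eif2ak3* stayed within 1.5-fold. *Atf6* (chr1:170704674-170867771, GRCm38) had means of 12.9 normalized counts before ligation, 36.9 on day 3 and 57.2 on day 14, and its highest library was 66.9. No day 0 library can have been above 29.0 and no BDL day 14 library below 27.9, so the groups can overlap only narrowly. Its log2 ratio to day 0 was 1.52 ± 0.66 (SE) on day 3 and 2.15 ± 0.62 on day 14, a 2.86-fold and a 4.43-fold higher mean. With any 1 library left out the fold at BDL day 14 would lie between 3.12 and 11.8.

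*Ern1*, the IRE1 kinase and nuclease, had means of 5.88, 9.15 and 9.87 normalized counts. Its log2 ratios to day 0 were 0.64 ± 0.39 (SE) and 0.75 ± 0.36, and leaving out 1 library could bring either fold under 1.5, to 1.2 and 1.29. *Eif2ak3*, which encodes PERK, had means of 15.5, 12.9 and 17.6 with log2 ratios of -0.26 ± 0.50 and 0.18 ± 0.47, smaller than their SE. Of its exon bases, 8.05% also lie in an exon of another annotated gene. The summed level of the sensors was 34.3, 58.9 and 84.7 normalized counts, and *Atf6* made up most of the difference.

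Of the transcription factors downstream of the sensors, *Xbp1* and *Atf4* stayed within 1.5-fold of day 0 on both days. *Xbp1*, whose mRNA is spliced by IRE1, had means of 115, 150 and 133 normalized counts with log2 ratios to day 0 of 0.38 ± 0.25 (SE) and 0.21 ± 0.23. These gene-level values do not separate spliced from unspliced *Xbp1*. *Atf4*, the central factor of the ISR, had means of 90.8, 111 and 86.5, log2 ratios of 0.29 ± 0.16 and -0.07 ± 0.15, and a small SD within groups of 0.19. *Ddit3*, which encodes the pro-apoptotic factor CHOP, was past that limit on day 14.

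*Ddit3* (chr10:127290774-127296288) had means of 16.5, 11.5 and 7.5 normalized counts in the same order, and its highest library, 20.6, can only belong to day 0. The mean was lowest at BDL day 14, where no library can have been above 13.6, and the day 0 libraries can have been as low as 8.2, so the groups may overlap. The log2 ratio to day 0 was -0.52 ± 0.33 (SE) on day 3 and -1.14 ± 0.31 on day 14, a 2.2-fold lower mean. With any 1 library left out, the ratio at BDL day 14 would stay between 0.331 and 0.544 times day 0.

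The ER chaperones were the highest group, and most of them stayed within 1.5-fold of day 0. Of the 11 chaperones and co-chaperones, 2 were higher and 0 lower on day 3, and 2 were higher and 2 lower on day 14. Of all genes, 19.2% were higher and 29.2% lower on day 3, and 21.2% and 28.8% on day 14. The share of higher chaperones was thus near the background and that of lower ones below it, with no test of the list. Their summed level was 2140, 2460 and 1970 normalized counts. Their median log2 ratio was 0.47 on day 3 and -0.10 on day 14, beside -0.02 and -0.04 for all genes. *Hspa5*, the luminal chaperone BiP that holds the sensors inactive, had means of 448, 434 and 349 with log2 ratios of -0.05 ± 0.41 (SE) and -0.36 ± 0.38, within their SE. *Hsp90b1* (GRP94) had means of 527, 429 and 397, and its highest library, 806, can only be a day 0 library. Of its exon bases, 15.7% lie in exons of other genes.

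The lectin chaperones *Calr* and *Canx* retain glycoproteins in the ER until they are folded. *Calr* had means of 666, 921 and 657 normalized counts, and its log2 ratio of 0.47 ± 0.36 (SE) at BDL day 3 was back at -0.02 ± 0.34 at BDL day 14. *Canx* had means of 148, 205 and 227, log2 ratios of 0.47 ± 0.18 and 0.62 ± 0.17, and a 1.53-fold higher mean at BDL day 14. Leaving out 1 library could bring that fold to 1.28. *Canx* had the smaller SD within groups, 0.23 against 0.45 for *Calr*.

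*Dnajc3* (chr14:118937976-118981697), a co-chaperone of BiP that also inhibits eIF2 kinases, had means of 41.6, 68.0 and 84.0 normalized counts and a highest library of 119. It was higher after BDL, but a day 0 library may have reached 75.1 and a BDL day 14 library may have been as low as 30.3. Its log2 ratio to day 0 was 0.71 ± 0.41 (SE) and 1.01 ± 0.38, a 1.63-fold and a 2.02-fold higher mean, and with any 1 library left out the fold could be 1.02 on day 3 and would remain at 1.54 or more on day 14.

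*Manf* (chr9:106838312-106891979), a secreted ER stress protein, had its highest mean at BDL day 3 and its lowest at BDL day 14. Its means were 115, 142 and 68.8 normalized counts, and no BDL day 14 library can have been above 127. The log2 ratio to day 0 was 0.30 ± 0.37 (SE) on day 3 and -0.74 ± 0.35 on day 14, and BDL day 14 was 2.06-fold lower than BDL day 3. Leaving out 1 library could bring the ratio of day 14 to day 0 from 0.598 to 0.933, which ends the call. Of its exon bases, 9.25% lie in exons of other genes. *Hyou1* (GRP170), a nucleotide exchange factor of BiP, had means of 37.0, 56.8 and 31.4, and its highest library, 68.4, can only be a BDL day 3 library. Its 1.54-fold higher mean on day 3 could be 1.17-fold without 1 library. *Creld2*, a secreted stress-induced oxidoreductase, had means of 18.0, 15.8 and 10.8 and was 1.67-fold lower at BDL day 14, with a log2 ratio of -0.74 ± 0.39 and a ratio of up to 0.741 times day 0 without 1 library.

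The other co-chaperones showed the highest mean at BDL day 3 without reaching 1.5-fold. *Dnajb9* (ERdj4) had means of 20.3, 28.3 and 19.0, *Dnajb11* (ERdj3) of 66.1, 96.0 and 76.5, and *Sdf2l1*, a partner of ERdj3, of 55.5, 65.9 and 52.6 normalized counts. Their log2 ratios at BDL day 3 were 0.48 ± 0.50, 0.54 ± 0.27 and 0.25 ± 0.38 (SE).

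The protein disulfide isomerases, which form and rearrange disulfide bonds, stayed near their day 0 means except for *Pdia4*. *Pdia3* had means of 518, 419 and 462 normalized counts and *Pdia6* of 169, 184 and 175, with all log2 ratios to day 0 between -0.31 and 0.12 and within 1 SE. The sign of the *Pdia6* ratio turned at both days under quantile normalization. *Pdia4* had means of 94.5, 87.1 and 62.3 and a log2 ratio of -0.60 ± 0.27 (SE) at BDL day 14, just past the limit at 1.52-fold lower, and up to 0.804 times day 0 without 1 library. The summed level of the isomerases was 782, 690 and 699.

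ER-associated degradation, which returns misfolded proteins to the cytosol for the proteasome, had genes on both sides. *Edem1* (chr6:108828641-108859356), a lectin that extracts misfolded glycoproteins from the folding cycle, had means of 37.9, 75.2 and 78.0 normalized counts and a highest library of 87.0. A day 0 library can have been at most 57.6, and BDL libraries at least 51.5 on day 3 and 50.9 on day 14, so only a narrow overlap is possible. Its log2 ratio to day 0 was 0.99 ± 0.26 (SE) and 1.04 ± 0.24, a 1.98-fold and a 2.06-fold higher mean, with a lowest fold of 1.63 and 1.69 if any 1 library is left out.

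*Sel1l*, the adaptor that holds the HRD1 ubiquitin ligase in its complex, had means of 32.7, 47.7 and 60.9 normalized counts. Its SD within groups was low, 0.18 on the log2 scale, and its highest library, 70.5, can only be a BDL day 14 library. The log2 ratio to day 0 was 0.54 ± 0.15 (SE) on day 3 and 0.90 ± 0.14 on day 14. *Syvn1*, which encodes HRD1 itself, had means of 21.3, 17.3 and 12.3 with log2 ratios of -0.30 ± 0.57 and -0.79 ± 0.53, so ligase and adaptor had ratios of opposite sign on both days, the ligase within 2 SE and, without 1 library, at up to 0.731 times day 0 on day 14. *Herpud1*, another member of that complex, had means of 46.6, 37.7 and 45.0 with log2 ratios of -0.31 ± 0.28 and -0.05 ± 0.26.

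Feedback and effector genes of the ISR had ratios of both signs against day 0. *Ppp1r15a* (GADD34; chr7:45522916-45526268), the regulatory subunit that directs eIF2 dephosphorylation, had means of 157 normalized counts at day 0, 78.6 on day 3 and 41.2 on day 14. Its highest library, 239, can only belong to day 0, where it held 50.7% of the group's sum. A day 0 library may have been as low as 39.4 and a BDL day 14 library as high as 90.7. The mean was 2.00-fold lower on day 3, with an SE of 0.54 on the log2 scale, and 3.81-fold lower on day 14, a log2 ratio of -1.93 ± 0.50. On day 14 the ratio would stay between 0.157 and 0.356 times day 0 with any 1 library left out, and on day 3 it could be as high as 0.688, inside the limit.

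*Ddit4* (REDD1; chr10:59949669-59951834), an inhibitor of mTORC1 induced by hypoxia, glucocorticoids and ATF4, had the largest ratio of the set. Its means were 32.0, 204 and 107 normalized counts and its highest library was 288. The libraries differed widely, with an SD within groups of 1.21 on the log2 scale, and the BDL day 14 libraries can lie anywhere between 3.82 and 288. The log2 ratio to day 0 was 2.67 ± 0.99 (SE) on day 3, 6.38-fold, and at least 4.3-fold with any 1 library left out. On day 14 it was 1.74 ± 0.92, 3.34-fold, and could be as low as 1.45-fold without 1 library.

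*Sesn2* (chr4:132492032-132510501), a leucine sensor upstream of mTORC1, had means of 12.5, 19.9 and 6.91 normalized counts, and its highest library, 24.7, can only be a BDL day 3 library. The mean was above day 0 at BDL day 3 and below it at BDL day 14, with log2 ratios of 0.67 ± 0.44 (SE) and -0.86 ± 0.41. Leaving out 1 library could bring the fold on day 3 from 1.59 to 1.19 and the ratio on day 14 to 1.01 times day 0. *Trib3* (chr2:152337422-152344032), a pseudokinase that restrains ATF4, was near the detection limit with means of 1.07, 1.95 and 0.664. Its log2 ratios of 0.87 ± 1.44 and -0.69 ± 1.35 were smaller than their SE, and the sign at BDL day 14 turned under quantile normalization. *Chac1* had means of 0.244, 0.0729 and 0.233, all at the floor, so no ratio is given.

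Amino acid synthesis genes, which ATF4 drives when amino acids are short, parted within 1 pathway. *Phgdh* and *Psat1* encode successive enzymes of serine synthesis. *Psat1* (chr19:15904678-15947337) had means of 2.82, 6.51 and 10.9 normalized counts, with the highest library, 16.1, at BDL day 14. *Phgdh* (chr3:98313170-98339990) had means of 6.95, 2.62 and 1.73, with the highest library, 9.49, at day 0. *Psat1* was thus lowest and *Phgdh* highest at day 0.

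The log2 ratio of *Psat1* to day 0 was 1.21 ± 0.38 (SE) on day 3 and 1.95 ± 0.36 on day 14, a 2.31-fold and a 3.87-fold higher mean. That of *Phgdh* was -1.41 ± 0.38 and -2.01 ± 0.35, a 2.65-fold and a 4.02-fold lower mean. With any 1 library left out, *Psat1* would remain at 2.97-fold or more on day 14 but could be 1.42-fold on day 3, under the limit. *Phgdh* would stay at 0.49 times day 0 or less on day 3 and 0.305 or less on day 14. *Asns* (chr6:7675169-7693254), asparagine synthetase, had means of 1.32, 0.486 and 3.03, and its log2 ratios to day 0 of -1.44 ± 1.15 and 1.20 ± 1.08 were both under 2 SE. At such means a few reads decide the value.

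Between the BDL days, 3 of 31 genes (9.68%) were more than 1.5-fold higher at BDL day 14 than at BDL day 3 and 8 (25.8%) were lower, beside 21.2% and 19.7% of all genes. The higher genes were *Atf6*, *Asns* and *Psat1*, and the lower ones *Hyou1*, *Manf*, *Ddit3*, *Ppp1r15a*, *Trib3*, *Sesn2*, *Ddit4* and *Phgdh*. All 4 kept feedback and effector genes were among the lower ones. *Sesn2* had a log2 ratio of -1.53 ± 0.41 (SE), *Manf* of -1.05 ± 0.35 and *Hyou1* of -0.86 ± 0.38. *Asns* was higher by 2.64 ± 1.08 and *Psat1* by 0.74 ± 0.36. With any 1 library left out, *Asns*, higher, and *Manf*, *Trib3* and *Sesn2*, lower, would stay past 1.5-fold, while *Ddit3*, *Phgdh* and *Ppp1r15a* could reach log2 ratios of 0.03, 0.09 and 0.12. The shares of all genes past that limit were 10.1% higher and 7.35% lower. *Asns*, *Psat1*, *Sesn2*, *Manf* and *Hyou1* were past 2 SE, 2 higher and 3 lower, beside 11.3% and 10.6% of all genes. The median log2 ratio was -0.33 for the stress genes and -0.00 for all genes.

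By the order of their 3 means, 12 genes were highest at BDL day 3 and 4 were lowest at BDL day 3. Another 8 had a lower mean from group to group and 7 a higher mean from group to group. The orders were not counted over all genes, so these counts describe the stress genes alone. The 7 were *Canx*, *Dnajc3*, *Atf6*, *Ern1*, *Sel1l*, *Edem1* and *Psat1*. The 8 were *Hspa5*, *Hsp90b1*, *Creld2*, *Pdia4*, *Ddit3*, *Syvn1*, *Ppp1r15a* and *Phgdh*. Neighbouring means in these orders often differed by less than 1 SE.

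**Figure D3:**
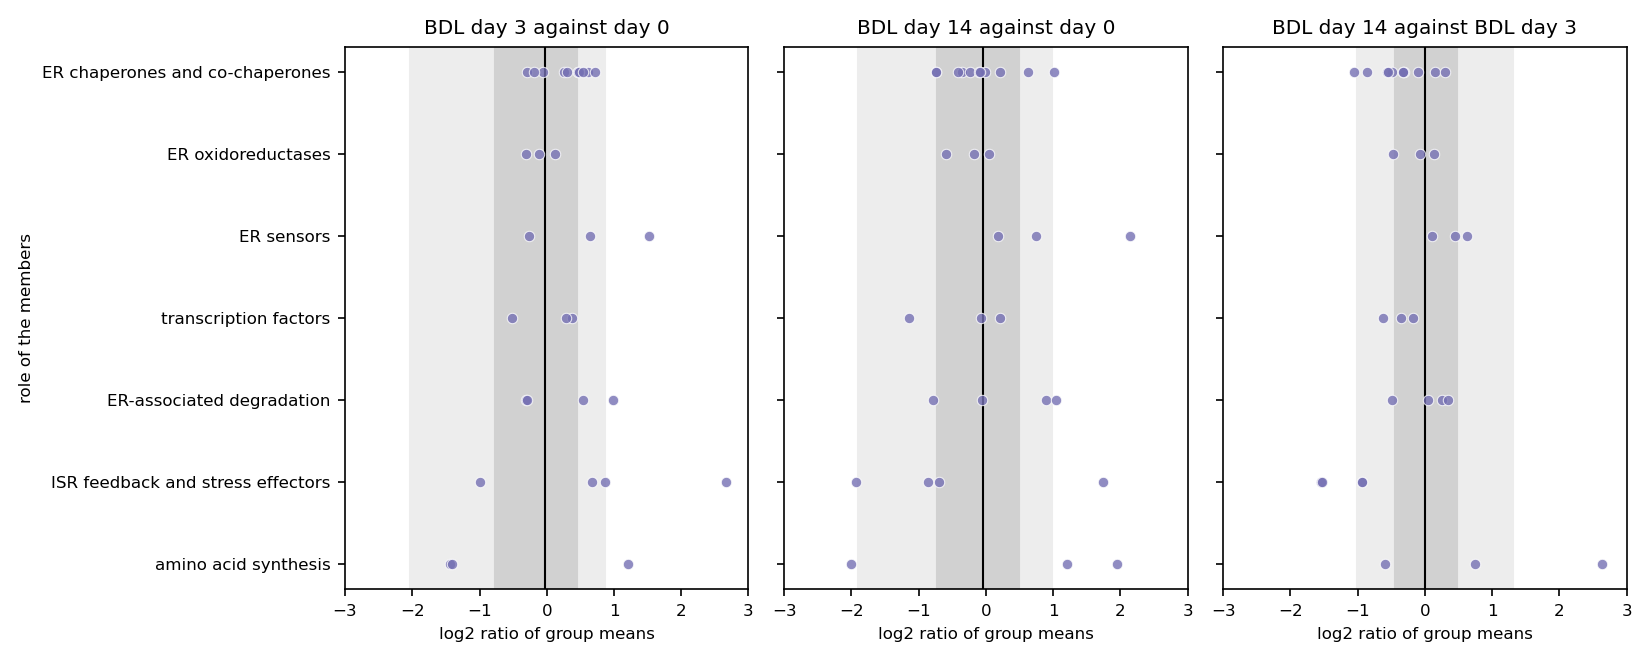
Log2 ratios of the group means of the 31 genes (points) by role for the 3 comparisons, over the range of all 12889 genes from percentile 25 to 75 (dark grey) and from 10 to 90 (light grey), with their median as a black line. Oxidoreductases lie inside the dark band in both panels against day 0, and the points of feedback and effector genes lie left of it in the panel of BDL day 14 against BDL day 3.

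Complete separation of the libraries was rare. From the highest library alone, the libraries of 2 groups could not overlap for 0 of 31 genes in each comparison, beside 2.00% of all genes on day 3 against day 0, 1.63% on day 14 against day 0 and 0.574% between the BDL days. With the geometric mean as well, they could not overlap for 3 genes at BDL day 14 against day 0, which were *Sel1l* and *Psat1*, higher, and *Phgdh*, lower. The share of all genes was 6.72%. For the other 2 comparisons the count was 0 of 31, beside 5.91% at BDL day 3 against day 0 and 3.43% between the BDL days.

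Genes with and without an exact ERSE or ERSE-II match in the bases searched were set side by side. Altered elements and elements further from the start were not searched for. Whether the elements bear on the levels was not tested. The 9 genes with an ERSE or ERSE-II had a median log2 ratio to day 0 of -0.05 on both days after ligation, and the 19 kept genes with a promoter and neither element had 0.38 and -0.07. On day 14, *Canx* and *Dnajc3* were the 2 higher and *Creld2* and *Syvn1* the 2 lower genes of the 9, while *Hspa5* and *Herpud1* stayed within 1.5-fold. Of the 19 genes, 6 were higher and 6 lower on day 14. Beside these counts, 21.2% of all genes kept were higher and 28.8% lower, so the counts of the 9 genes do not stand out. Of the 3 genes with a C/EBP-ATF element, *Asns* was past 1.5-fold on both days, within 2 SE as given above, *Herpud1* was not, and *Chac1* was at the floor and not assessed. *Atf6*, *Manf* and *Hyou1* had no RefSeq promoter and were among neither the 9 nor the 19 genes.

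Other genes of the same pathways were described from lists. Beside the counts of each list below, 19.2% of all genes kept were higher and 29.2% lower on day 3. On day 14 the shares were 21.2% and 28.8%. Of 21 further ER folding and disulfide enzymes, 19 were kept. On day 3, 5 were higher and 4 lower than at day 0, and on day 14, 6 were higher and 1 lower. *P4hb*, the archetypal protein disulfide isomerase, had means of 386, 719 and 706 normalized counts and log2 ratios of 0.90 ± 0.21 (SE) and 0.87 ± 0.19. *Dnajc10*, an ER disulfide reductase, had means of 24.0, 27.2 and 44.0, and *Pdia5* of 14.8, 5.04 and 8.35. *Qsox1*, a sulfhydryl oxidase, had means of 31.7, 18.8 and 59.8 and *Fkbp14*, a prolyl isomerase, of 4.89, 2.21 and 6.75, with ratios under 2 SE.

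Of 24 further degradation genes, 23 were kept, with 6 higher and 1 lower on day 3 and 3 higher and 2 lower on day 14. *Derl1*, a channel of the pathway, had means of 62.1, 118 and 85.6 and a log2 ratio of 0.93 ± 0.15 (SE) at BDL day 3. *Ube2g2*, a ubiquitin-conjugating enzyme, had means of 26.5, 52.6 and 31.3, and *Nploc4*, a cofactor of the p97 ATPase, of 18.0, 36.4 and 31.6. On day 14 the ubiquitin ligases *Ube4a* (26.4, 16.5 and 14.7) and *Rnf5* (17.3, 16.2 and 10.0) were lower. These lists were chosen with earlier results of these data known, and their counts are descriptions.

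Genes downstream of ATF4 had ratios of both signs. Of 13 aminoacyl-tRNA synthetases, 1 was higher and 0 lower on day 3, and 1 was higher and 2 lower on day 14. *Iars* had means of 11.5, 18.6 and 20.8, *Cars* of 22.3, 14.9 and 12.8, and *Aars* of 54.3, 64.3 and 35.2. *Nars* had means of 67.7, 98.1 and 98.0 and stayed within 1.5-fold at BDL day 3. Of 18 genes of amino acid transport and one-carbon metabolism, 13 were kept, with 2 higher and 2 lower on day 3 and 4 higher and 4 lower on day 14. *Cbs*, an enzyme of transsulfuration, had means of 32.6, 3.94 and 3.29 and *Cth*, the next enzyme, of 12.1, 9.07 and 3.83. *Slc3a2*, the heavy chain of several amino acid transporters, had means of 178, 303 and 196, and *Aldh18a1*, of proline synthesis, of 28.0, 46.1 and 5.94.

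Stress factors downstream of ATF4 and CHOP had mostly lower means. Of 13 genes kept, 2 were higher and 8 lower at each BDL day, beside 29.2% and 28.8% of all genes lower on the same days, and the median log2 ratio to day 0 was -0.87 and -0.94 against -0.02 and -0.04 for all genes. *Atf3*, an immediate early stress factor, had means of 174, 42.8 and 97.6 normalized counts, with a log2 ratio of -2.02 ± 0.72 (SE) at BDL day 3. *Atf5* had means of 26.1, 9.23 and 5.01 and a log2 ratio of -2.38 ± 0.65 at BDL day 14. *Stc2*, a secreted glycoprotein, had means of 8.57, 0.0729 and 2.27, the second at the floor, which makes the day 3 mean lower by a factor of at least 29.4. *Vldlr* had means of 2.44, 0.301 and 0.528.

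Among 17 genes of the eIF2 kinases, eIF2 and its exchange factor eIF2B, 5 were higher and 2 lower on day 3, and 6 were higher and 2 lower on day 14. Of all genes kept, 19.2% were higher and 29.2% lower on day 3, and 21.2% and 28.8% on day 14. *Eif2ak1*, the heme-regulated kinase, had means of 18.4, 42.1 and 39.2 normalized counts and log2 ratios of 1.19 ± 0.38 (SE) and 1.09 ± 0.35. *Eif2ak4*, the kinase GCN2 that senses uncharged tRNA, had means of 9.77, 17.1 and 7.32. *Nck1*, an adaptor protein that binds eIF2, had means of 43.9, 20.9 and 10.8 and a log2 ratio of -2.02 ± 0.43 at BDL day 14. *Eif2b2* had means of 23.4, 39.0 and 46.9.

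Of 14 other ER-anchored factors and proteases that cleave them, 0 were higher and 2 lower on day 3, and 2 were higher and 3 lower on day 14. *Creb3l3*, a liver factor cleaved like ATF6, had means of 7.58, 4.71 and 0.765, and *Rtcb*, the ligase that joins the spliced *Xbp1* mRNA, of 55.5, 61.8 and 136 with a log2 ratio of 1.29 ± 0.21 (SE) at BDL day 14. *Creb3l1* had means of 7.34, 2.68 and 2.59 with ratios under 2 SE. *Mbtps1*, the site-1 protease that cleaves ATF6, had means of 34.2, 25.1 and 23.2.

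The make-up of the sorted fraction differed between the groups beside these values. Of 16 hepatocyte markers, 13 were lower on day 3 and 15 on day 14. Of 12 mesenchymal markers, 12 were lower at each day. Of 12 macrophage markers, 9 were higher at BDL day 3, and 2 were higher and 2 lower at BDL day 14. The 4 Kupffer cell markers summed to 8520, 16900 and 1100 normalized counts, with *Clec4f* at 4610, 6890 and 185. Monocyte markers summed to 290, 352 and 1410 over 5 genes.

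Of 11 cholangiocyte and progenitor markers kept, 8 were lower and 1 higher at BDL day 3, and 6 were lower and 2 higher at BDL day 14. Sinusoidal endothelial markers summed to 1180, 637 and 1540 over 8 genes. B and plasma cell markers summed to 586, 132 and 81.5, T and NK cell markers to 136, 38.7 and 9.98, and neutrophil markers to 474, 214 and 130. Proliferation markers summed to 134, 135 and 154. Plasma cells and hepatocytes are known for high levels of ER chaperones, and the 11 chaperones and co-chaperones summed to 2140, 2460 and 1970 normalized counts. At BDL day 14 the hepatocyte, mesenchymal and lymphocyte lists were lower than at day 0, while 9 stress genes were higher and 9 lower. The part of the cell make-up in the stress genes was not tested.

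**Figure D4:**
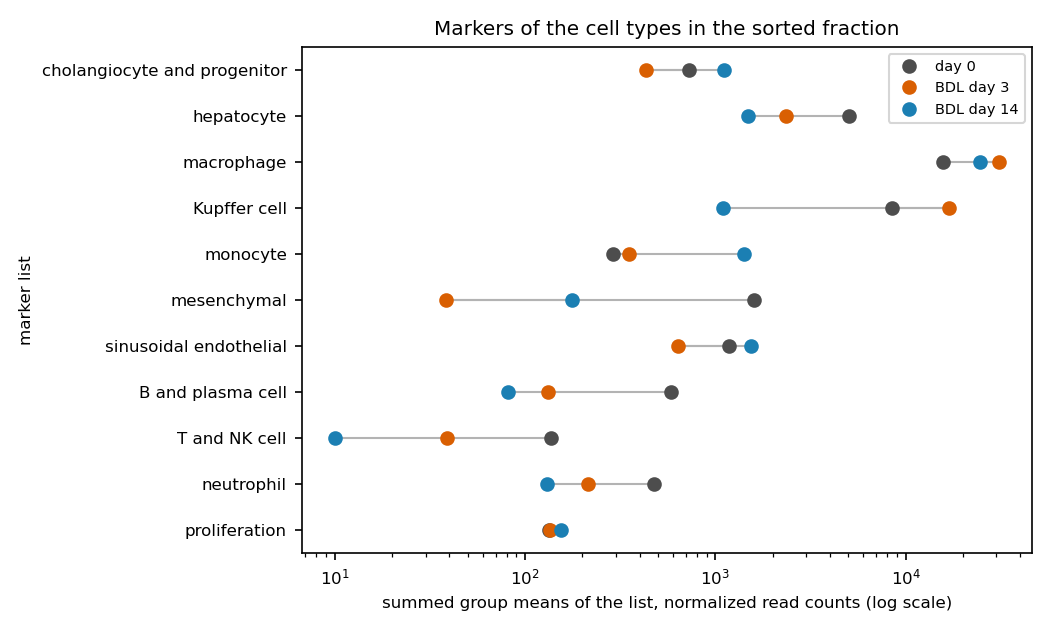
Summed group means of each marker list in normalized read counts on a log scale, with day 0 in grey, BDL day 3 in orange and BDL day 14 in blue. Macrophage markers lie furthest right in every group, mesenchymal markers drop from 1590 to 38.2 and 177, and Kupffer cell markers from 8520 and 16900 to 1100.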

How the data were processed

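GFP(+) cells were sorted from day 0, BDL day 3 and BDL day 14 livers, and mRNA libraries were sequenced. The authors trimmed reads (minimum quality 20, minimum length 25 bp), aligned and quantified them on mm10 with GENCODE M18 and scaled the counts to the upper quartile (minimum 10 reads) in Partek Flow. The paper and the processing notes name different versions of STAR, and the notes give 2.6.1d. The deposited signal values are group means of normalized counts. The deposited table also holds sums, maxima and geometric means over 10 libraries, and the authors' p-values, FDR, ratios, fold changes and limits for 3 comparisons, which were not used. It has 0 columns of values per library. Weighted by 3, 3 and 4 libraries, the group means returned the overall mean with a 99th percentile of deviation of 0.469%, against 2.7% for the nearest other sizes. The labels describe 12 libraries, 6 of them BDL day 14, and do not say which were left out. The study counts 1 animal per library, which the labels do not state.

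Log2 ratios of group means were computed without a pseudocount. Genes summing to at least 10 normalized counts were kept (12889, the first of 4 listings with a repeated symbol being used). The limit of 1.5-fold is the study's. The within-group SD followed from the gap between the group means and the geometric mean, taking library values as log-normal with 1 spread for all groups. The paper describes BDL day 14 replicates as more variable than day 0, so the SE is approximate on this account too. Library limits followed from the highest library and the geometric mean. The steps were tested on simulated data drawn with 1 spread for all groups, which cannot show the effect of unequal spreads. The table's gene ends are 1 past the last base, and 31 of 32 positions equalled GENCODE M21. Strand use in counting is not given in the sources used here, so overlapping exons on either strand were counted.

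The genes and lists were chosen with earlier results of these data known. The text names every stress gene and, of each related list, up to 3 genes with the largest ratio in each comparison against day 0. Of marker lists it names up to 3 genes highest at day 0, and *Krt19* and *Prom1*. Alternatives were an unfiltered table, a minimum mean of 10, a 2-fold limit, a pseudocount of 1, median-ratio scaling, quantile normalization and leaving out 1 library. Sharper limits from the geometric mean and the 2 SE limit were added after seeing the data. Python 3.11.15, numpy 2.4.6, pandas 2.3.3 and matplotlib 3.10.9 were used.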

Additional observations from a re-analysis of the deposited data

How the results depend on the processing

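No paired analysis was possible because the table holds group means only. No filter and median-ratio scaling kept the counts within 1.5 times and every direction. With a mean of at least 10, 1 gene was lower at BDL day 3 and 1 was higher at BDL day 14 against BDL day 3, since fewer genes were counted. With a 2-fold limit, 3 genes were higher at BDL day 3, 3 lower at BDL day 14, and 1 higher and 3 lower between the BDL days. No share of all genes is given for these 2 settings, nor for the ranges of counts with 1 library left out below. Those counts describe the stress genes alone. Requiring 2 SE left 4 higher and 1 lower at BDL day 3 and 3 lower between the BDL days. Limits with the geometric mean gave 3 genes without overlap at BDL day 14. Quantile normalization turned the called log2 ratio of *Trib3* at BDL day 14 to 0.25. The cause was not tested.

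Leaving out any 1 library, taken for each gene at its worst case, could give from 2 to 18 higher and from 1 to 12 lower genes at BDL day 3 (from 3 to 18 and from 1 to 10 with sharper limits), with a median log2 ratio from -0.26 to 0.95. At BDL day 14 it could give from 3 to 13 higher (from 6 to 13) and from 3 to 16 lower (from 3 to 13), and between the BDL days from 1 to 11 higher (from 1 to 8) and from 3 to 16 lower (from 3 to 15). It could turn log2 ratios, given here from lowest to highest. *Psat1* at BDL day 3 could reach -0.74 by the highest library alone, but with sharper limits it stayed positive, from 0.50 to 1.91. *Asns* at BDL day 3 could turn with sharper limits (-4.61 to 1.73). At BDL day 14 the ratios were those of *Trib3* (-3.85 to 1.75) and *Sesn2* (-3.70 to 0.12, sharper highest 0.01). Between the BDL days they were those of *Ddit3* (-1.88 to 0.12, sharper highest 0.03), *Phgdh* (-1.09 to 0.09) and *Ppp1r15a* (-1.67 to 0.12). The library concerned is not named in the table. Depth per library is unknown, so counting error could not be given for the genes at low means.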

Other observations

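Genes for protein entry into the ER were in part higher after BDL. Of 21 genes of the translocon and signal peptide processing, 9 were more than 1.5-fold higher and 2 lower at BDL day 3, and 8 were higher and 0 lower at BDL day 14, with a median log2 ratio to day 0 of 0.40 and 0.46. Of all genes kept, 19.2% and 21.2% were higher and 29.2% and 28.8% lower, and their medians were -0.02 and -0.04, with no test of the list. *Sec61a1*, the channel through which proteins enter the ER, had means of 67.7, 114 and 117 normalized counts, *Ssr3* of 66.6, 106 and 127, and *Spcs3*, of the signal peptidase, of 29.9, 46.1 and 63.1, with log2 ratios at BDL day 14 of 0.79 ± 0.17, 0.93 ± 0.25 and 1.08 ± 0.26 (SE). *Ssr4* had means of 84.6, 158 and 134, *Srprb* of 16.6, 29.7 and 24.4, and *Srp54a* of 24.5, 12.7 and 25.4.

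Of 19 genes of COPII vesicle transport, 3 were higher and 2 lower at BDL day 3, and 2 were higher and 2 lower at BDL day 14. The shares of all genes beside these counts are those given for the translocon list. *Surf4*, a cargo receptor, had means of 89.4, 223 and 188 normalized counts, with log2 ratios to day 0 of 1.32 ± 0.09 (SE) and 1.07 ± 0.08. Its SD within groups is no larger than rounding of the deposited values can produce, so these SEs are uncertain. With rounding allowed for and any 1 library left out, the fold would remain at 2.18 and 1.84 or more. *Sec23b*, of the vesicle coat, had means of 14.2, 26.5 and 24.1. *Kdelr3*, a receptor that returns chaperones to the ER, had means of 3.16, 0.134 and 1.59, the second at the floor, which makes it lower by a factor of at least 10.8. The part of the cell make-up in these values was not tested.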
